A study of Rattus norvegicus with 15 samples.

Results

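Mitochondrial ribosomal proteins were studied as the 74 genes of the deposited table whose symbol begins with Mrpl or Mrps and a digit and whose counts sum to at least 50 over the 15 libraries, out of 21969 genes in all. The symbol alone matched 75 genes. Mrps21l, with 16 counts in all libraries together, fell below the minimum, while Mrpl1 (5967 counts) and Mrps28 (6245 counts) had the lowest totals inside it. All 74 passed the filter on low counts and were among the 15860 genes tested. Of the 74, 47 belong to the large subunit (Mrps18a and Mrps30 among them, despite their symbols) and 26 to the small subunit. The protein encoded by Mrps36 is now known as Kgd4, a component of the 2-oxoglutarate dehydrogenase complex, so that its gene is a member by name but not by function.

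Mitochondria make a small set of proteins themselves, all of them core subunits of the respiratory chain and ATP synthase, on ribosomes of their own. The RNAs of the mitochondrial ribosome are transcribed inside the organelle, but every one of its proteins is encoded in the nucleus, made in the cytosol and imported. Some of these proteins have counterparts in bacterial ribosomes, and others are found only in mitochondrial ribosomes. The airway epithelium holds ciliated cells, whose beating cilia consume ATP.

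The cells were airway epithelial cells from rat trachea, grown at an air-liquid interface for 3 to 4 weeks. The groups of 5 libraries each were cells given 10% CSE for 24 h with 100 µM naringenin from 4 h before, cells given 10% CSE alone for 24 h, and untreated controls. Naringenin is a flavanone of citrus fruit, and CSE is an abbreviation that the labels do not spell out. No library received naringenin alone, and the labels name no strain, age, animal or culture, so that p-values reflect nothing beyond the spread among these libraries, which may be technical.

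Library totals averaged 57.5 ± 1.95 M counts in CSE with naringenin, 58.9 ± 1.27 M in CSE and 58.3 ± 1.01 M in control (SD, n = 5 each; 1 M is 1e6), with all totals between 55.1 and 60.6 M. The libraries fell into 3 sets that cut across the groups, found by clustering genes that are not members: set 1 holds control 1 and 2, CSE 1 and 3 and CSE with naringenin 3 and 4, set 2 holds control 3 and 4, CSE 2 and 4 and CSE with naringenin 1 and 2, and set 3 holds replicate 5 of each group. The sources used here do not say what the sets stand for, so values within each set are given beside the main results. In these bulk samples, fewer cells of a type and less RNA per cell cannot be told apart. Of 12 airway epithelium markers 11 were found, and their summed level was 3203 to 4037 counts per 1e6 (CPM) in CSE with naringenin, 3107 to 3621 CPM in CSE and 4603 to 6956 CPM in control. Krt8, Krt18, Epcam and Dnah5 fell with CSE, by 0.76, 0.67, 0.41 and 0.72 on the log2 scale. Fibroblast and smooth muscle markers summed to 33.3 to 222 CPM, 17.3 to 129 CPM and 154 to 580 CPM in the same order of groups, leukocyte markers to 3.64 to 12.7, 2.95 to 23.8 and 3.90 to 32.3 CPM, and cartilage markers to 1.32 to 2.78, 0.72 to 1.80 and 1.36 to 1.79 CPM. Tagln and Col1a1, of smooth muscle and fibroblasts, were lower with CSE by log2 -2.42 and -2.24, calls lost in 5 and 8 of the 15 fits that left out 1 library. Of the cartilage markers Col2a1 was lower with CSE (log2 -1.43), and Comp was higher, at 0.694 ± 0.444 CPM with CSE and 0.0761 ± 0.105 CPM in control (SD, n = 5 each). Of 3 endothelial markers, Kdr was found, with 45 counts in all. The part of these shifts in the results on mitochondrial ribosomal proteins was not tested.

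Levels of the members spanned a 16.1-fold range on the authors' scale of fragments per kilobase of gene and 1e6 fragments (FPKM), with a median of 18.6 FPKM over all libraries and 56 of the 74 at 10 FPKM or more. Mrpl17, a large-subunit protein with a bacterial counterpart, had the highest level at 82.0 FPKM, followed by the small-subunit protein Mrps6 at 59.6 FPKM and the large-subunit protein Mrpl33 at 54.8 FPKM. At the low end stood Mrps28 at 5.09, Mrpl47 at 5.13 and Mrps10 at 5.20 FPKM, which lie within each other's spread over libraries (SD 0.530, 0.985 and 0.874 FPKM). Together the members took 0.194% ± 0.0082 of the counts in CSE with naringenin, 0.198% ± 0.0061 in CSE and 0.168% ± 0.0132 in control (SD, n = 5 each). The ranges were 0.185% to 0.207%, 0.194% to 0.208% and 0.156% to 0.184%. On this share of unscaled counts, every library given CSE, with or without naringenin, lay above every control. As CPM, which carry TMM scaling, the members summed to 1814 to 2047, 1880 to 2114 and 1601 to 1882 in the same order. On that scale both groups given CSE overlapped the controls, CSE alone by a small margin.

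On the log2 scale, with each gene centred on its mean over the libraries, the median over members was taken in each library. This median averaged 0.042 ± 0.055 in CSE with naringenin, 0.074 ± 0.070 in CSE and -0.115 ± 0.110 in control (SD, n = 5 each). The CSE libraries stood at 0.012, 0.074, 0.015, 0.081 and 0.185, against -0.020, 0.007, -0.221, -0.231 and -0.111 in controls 1 to 5. The lowest CSE library, replicate 1, and the highest control, replicate 2, both of set 1, are separated by less than the spread within either group, while controls 3 and 4 of set 2 stand furthest down. Libraries given CSE with naringenin stood at 0.028, -0.013, 0.047, 0.017 and 0.133, of which the 4 from sets 1 and 2 lie close to control 2.

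The first comparison asks how these genes responded to CSE. Of the 74 members, 20 rose (27.0%), none fell and 54 did not pass, at an adjusted p under 0.05 (edgeR's quasi-likelihood test with Benjamini-Hochberg adjustment over all genes tested). Over all genes tested 10.8% rose and 10.4% fell. At an unadjusted p under 0.05 there were 39 members (52.7%), against 34.7% of genes tested. The changes were small: the members that rose did so by 1.18-fold to 1.54-fold, and the median over all 74 was a log2 change of 0.20, or 1.15-fold, beside -0.00255 over all genes tested. The members ran from Mrpl10 at -0.20 to Mrpl49 at 0.62, and 63 of 74 lay above 0, against 49.7% of all genes tested. In 17 members (23.0%) all 5 CSE libraries lay above all 5 controls, against 8.32% of all genes tested, and 15 of these 17 are among the 20 that rose. For 63 members the 95% interval of the change lay within 1.5-fold in both directions.

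The count depends on the libraries. Without control 4 it was 13, against 8.27% of genes tested, since Mrpl1, Mrpl27, Mrps18b, Mrps25, Mrps34, Mrps35 and Mrps7 no longer passed. Within set 1, where the median change was 0.029, 10 members passed as higher and 7 as lower (Mrpl10, Mrpl14, Mrpl20, Mrpl23, Mrpl34, Mrpl44 and Mrps21), against 12.6% and 15.6% of genes tested. Within sets 2 and 3 the medians were 0.293 and 0.313, with 37 and 25 members higher and 0 lower in these fits, which pool the spread over sets and so assume that the lone library of a group in set 3 varies like the others. Of all genes tested 12.1% were higher and 13.8% lower in set 2, and 12.3% higher and 14.4% lower in set 3. By the interaction of group and set in edgeR, the change differed between sets for 6 members, against 4.72% of genes tested. All 20 members that rose over all libraries had a change above 0 in each of the 3 sets, a description only, since the same libraries made the call.

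**Figure D1:**
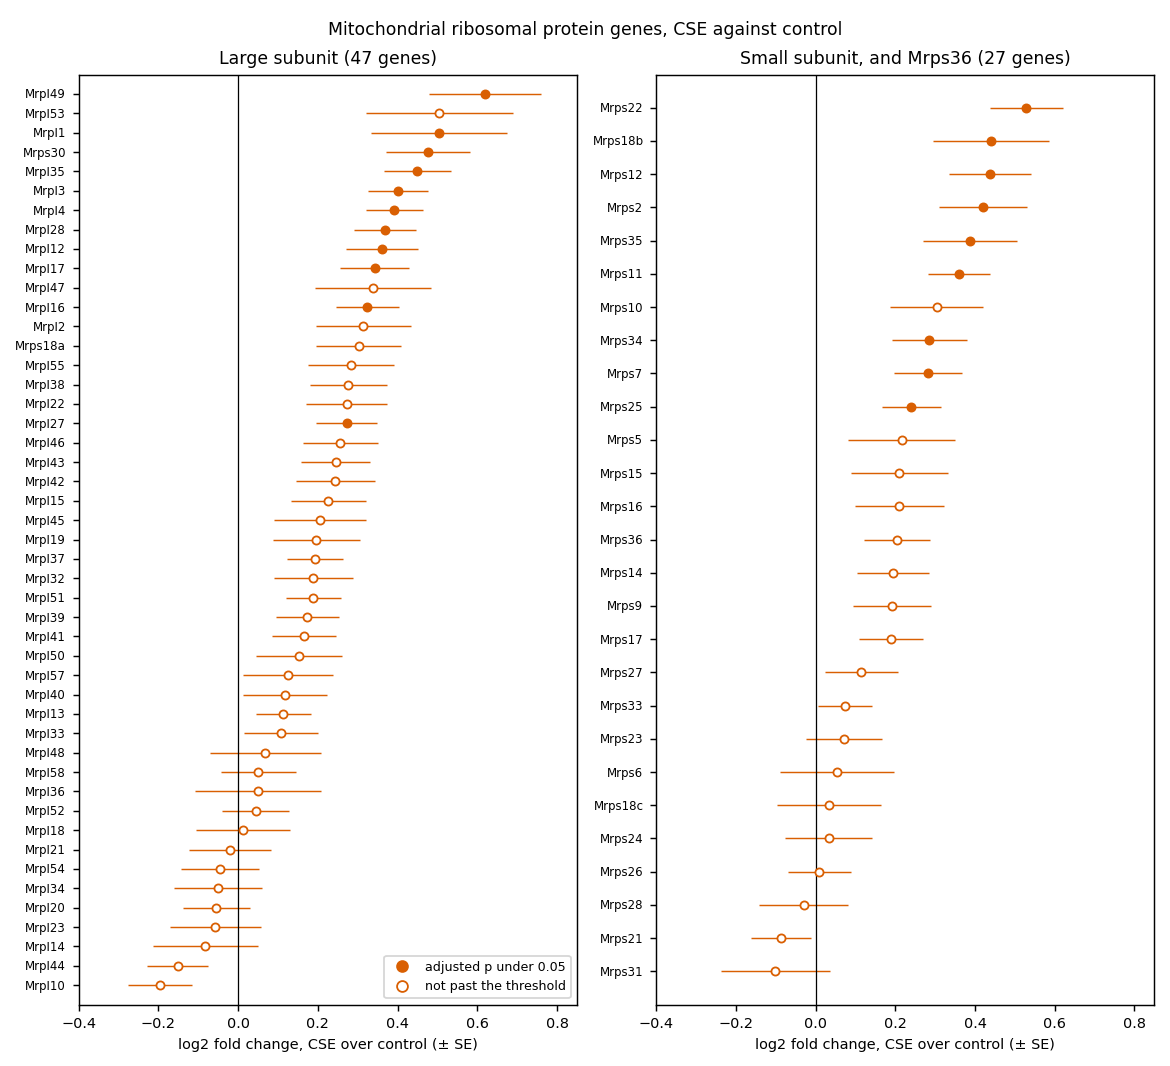
Log2 fold change of CSE over control for each of the 74 genes, with its standard error, for the 47 large-subunit genes on the left and the 26 small-subunit genes with Mrps36 on the right. Filled points passed an adjusted p under 0.05. The 20 filled points all lie right of 0, between 0.24 and 0.62, and no gene left of 0 passed.

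Among large-subunit members, Mrpl49 had the largest change. This protein has no bacterial counterpart, and its gene (ENSRNOG00000020975, chromosome 1 from 221417336 to 221420115, minus strand) overlaps Syvn1 on the other strand in the coordinates of the deposited table, for which the sources used here name no build. Its level was 7.85, 10.1, 8.11, 9.90 and 11.4 CPM in the CSE libraries, against 6.12, 5.81, 7.71, 6.53 and 4.68 CPM in the controls. All CSE libraries were above all controls, and within the sets the difference was largest in set 3. The closest libraries were CSE 1, of set 1, and control 3, of set 2, at 7.85 and 7.71 CPM. The change was 1.54-fold (log2 0.62 ± 0.14 (SE), adjusted p = 0.00636), with log2 0.42, 0.49 and 1.29 in sets 1, 2 and 3. Reads of Mrpl49 and Syvn1 cannot be told apart where the genes overlap unless counting used the strand, which is not given.

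Mrps30 is a large-subunit protein despite its symbol (ENSRNOG00000012136, chromosome 2 from 51042546 to 51049449, minus strand). It stood at 12.8, 15.7, 14.5, 18.0 and 14.1 CPM with CSE and at 10.9, 10.7, 11.7, 11.9 and 8.78 CPM in control. The groups did not overlap, and CSE 2 and 4 were the highest libraries. The rise was 1.39-fold (log2 0.48 ± 0.105, adjusted p = 0.00546). Mrpl35, which has a bacterial counterpart (ENSRNOG00000008546, chromosome 4 from 99738792 to 99746560, minus strand), had 14.1, 15.9, 16.3, 16.2 and 19.6 CPM with CSE and 12.2, 11.7, 11.8, 12.0 and 12.4 CPM in control. Its controls varied little, and every CSE library exceeded them (1.37-fold, log2 0.45 ± 0.085, adjusted p = 0.00205).

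Mrpl1, the counterpart of the bacterial L1 protein (ENSRNOG00000002070, chromosome 14 from 14951495 to 15008150, minus strand), had 9.38, 5.60, 5.96, 7.95 and 9.38 CPM with CSE, against 6.02, 5.88, 4.49, 5.62 and 4.97 CPM in control. CSE 2 and 3 lay inside the range of the controls. The change of 1.42-fold only just passed (log2 0.50 ± 0.17, adjusted p = 0.0489) and did not pass in 11 of the 15 fits that left out 1 library, with an adjusted p of up to 0.117. The table holds a second entry described as an L1-like mitochondrial ribosomal protein, LOC100359687, with 4491 counts. Summed with it, Mrpl1 stood at 14.6, 14.3, 12.2, 13.7 and 13.9 CPM with CSE and at 9.76, 10.1, 9.09, 10.7 and 9.21 CPM in control. On the sum the groups no longer overlapped, and the change was log2 0.49 ± 0.08 (adjusted p = 7.99e-04, edgeR, an alternative added after the data were seen). How the counting assigned reads between the entries is not given, so the level of Mrpl1 alone is uncertain.

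Mrpl17, Mrpl4 and Mrpl3 are large-subunit proteins with bacterial counterparts, the last lying close to the catalytic centre that joins amino acids. Mrpl17 (chromosome 1 from 170652294 to 170653920, minus strand) had 84.4, 90.7, 84.6, 96.8 and 109 CPM with CSE and 70.2, 71.0, 75.2, 69.8 and 80.5 CPM in control. Mrpl4 (chromosome 8 from 22021213 to 22027228, plus strand) had 33.6, 33.3, 32.9, 32.9 and 34.1 CPM with CSE and 28.5, 25.5, 25.0, 25.8 and 22.4 CPM in control. The groups did not overlap in either gene, and the CSE libraries hardly differed among themselves for Mrpl4. Mrpl3 (chromosome 8 from 113603533 to 113626893, plus strand) had 47.8, 47.7, 47.5, 48.5 and 59.1 CPM with CSE and 37.5, 36.3, 37.8, 35.4 and 42.6 CPM in control, again without overlap. The changes were log2 0.34 ± 0.087 for Mrpl17 (adjusted p = 0.0119), 0.39 ± 0.071 for Mrpl4 (adjusted p = 0.00157) and 0.40 ± 0.076 for Mrpl3 (adjusted p = 0.00209).

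Mrpl12, the stalk protein that binds translation factors on the ribosome, averaged 34.2 ± 2.55 CPM with CSE and 26.7 ± 2.94 CPM in control (SD, n = 5 each; log2 0.36, adjusted p = 0.0108, no overlap). The other large-subunit members that rose were Mrpl28, Mrpl16 and Mrpl27, with log2 changes of 0.37, 0.32 and 0.27 and no overlap between the groups. Mrpl27 belongs to the family whose bacterial member reaches into the catalytic centre. Of the 4 stalk proteins Mrpl12 alone passed. Mrpl10, at the base of the stalk, averaged 80.5 ± 4.71 CPM with CSE and 92.2 ± 11.1 CPM in control (log2 -0.20 ± 0.080, adjusted p = 0.0948), and passed as lower with DESeq2 (adjusted p = 0.0481) and with the library set as a block (adjusted p = 0.0307). Of all genes tested, 13.8% were lower in the first of these fits and 20.6% in the second.

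Among small-subunit members Mrps22, a protein with no bacterial counterpart whose mutation in humans causes a disorder of mitochondrial protein synthesis, changed most. Its gene (ENSRNOG00000047984, chromosome 8 from 106604379 to 106617597, minus strand) had 14.2, 16.6, 15.3, 17.9 and 14.9 CPM with CSE, against 10.1, 10.6, 13.1, 10.9 and 10.0 CPM in control. Control 3 stood nearest to the CSE libraries, yet below all of them. The rise was 1.44-fold (log2 0.53 ± 0.092, adjusted p = 0.00113) and of like size in sets 1, 2 and 3 (log2 0.51, 0.53 and 0.57).

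Mrps12 lies at the decoding centre, where codons are read (ENSRNOG00000019949, chromosome 1 from 86920680 to 86923575, minus strand). It stood at 21.4, 21.3, 19.5, 20.5 and 25.1 CPM with CSE and at 17.4, 19.1, 14.9, 14.3 and 13.8 CPM in control. No CSE library fell below a control, although CSE 3 and control 2, both of set 1, nearly met. The change was 1.35-fold (log2 0.44 ± 0.102, adjusted p = 0.00778), with log2 0.16, 0.52 and 0.86 in sets 1, 2 and 3. In the table, the gene starts 16 bases from Sars2, the mitochondrial seryl-tRNA synthetase, on the opposite strand.

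Mrps2, with a bacterial counterpart (ENSRNOG00000010164, chromosome 3 from 7051695 to 7058521, plus strand, overlapping RGD1306233), had 35.4, 40.8, 40.5, 45.0 and 33.6 CPM with CSE and 29.2, 29.8, 33.7, 32.4 and 20.9 CPM in control. CSE 5 and control 3 overlapped by a small margin, and control 5 was lowest (log2 0.42 ± 0.11, adjusted p = 0.0147). For Mrps18b, which has no direct bacterial counterpart (ENSRNOG00000000804, chromosome 20 from 3344870 to 3350927, plus strand), the levels were 50.1, 41.7, 55.1, 45.0 and 63.1 CPM with CSE and 40.9, 39.1, 32.6, 32.1 and 43.3 CPM in control. The groups overlapped over all libraries, but within each set every CSE library was above its controls. Its change (log2 0.44 ± 0.146, adjusted p = 0.0432) did not pass in 9 of the 15 fits that left out 1 library, with an adjusted p of up to 0.115.

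The other small-subunit members that rose were Mrps35, Mrps11, Mrps34, Mrps7 and Mrps25, with log2 changes of 0.39, 0.36, 0.29, 0.28 and 0.24. The calls of Mrps34, Mrps7, Mrps25 and Mrps35 were lost in 8, 6, 5 and 3 of the 15 fits that left out 1 library. The call of Mrps11 was kept in all of these fits. Mrps11 was tight in control, at 11.4 ± 0.30 CPM, and stood at 14.7 ± 1.32 CPM with CSE (SD, n = 5 each). Its neighbour Mrpl46 begins 72 bases away on the opposite strand and had 12.6 ± 1.06 CPM with CSE and 10.6 ± 1.22 CPM in control (log2 0.26, adjusted p = 0.0633).

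**Figure D2:**
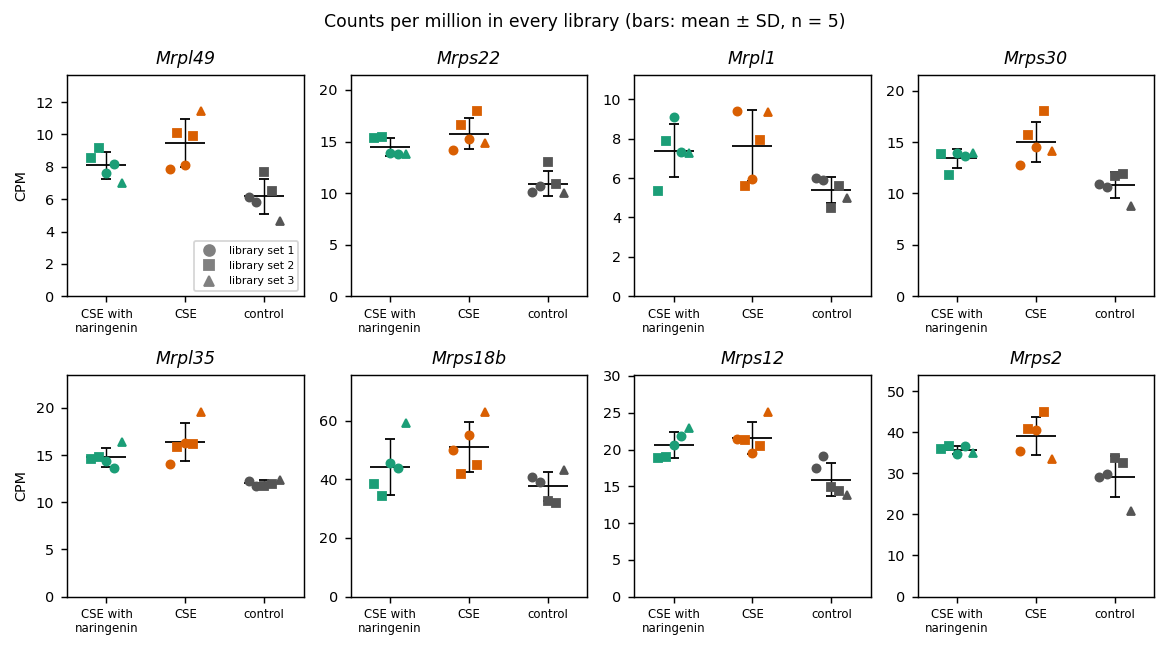
CPM of the 8 genes with the largest change that passed in CSE against control, with groups on the horizontal axis and library sets as marker shapes. Black bars are the mean ± SD of 5 libraries, and each vertical axis starts at 0. Mrpl49, Mrps22, Mrps30, Mrpl35 and Mrps12 show CSE libraries above all controls, while Mrpl1, Mrps18b and Mrps2 overlap.

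By subunit, 11 of 47 large-subunit and 9 of 26 small-subunit members rose (median log2 0.196 and 0.202). Members with a bacterial counterpart counted 13 of 42 (median 0.210), and members specific to mitochondrial ribosomes 7 of 31 (median 0.188). Within the large subunit the counts were 9 of 26 and 2 of 21, and within the small subunit 4 of 16 and 5 of 10. The difference between these classes was not tested. Of the 25 members lowest by FPKM 8 rose, of the 24 in the middle 7 and of the 25 highest 5, with medians of 0.226, 0.192 and 0.073. Reads could be shared with an overlapping gene for 11 members, of which 3 rose, while 17 of the 63 others did.

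Several abundant members stayed near their control level. Mrps6 had 46.1 ± 4.60 CPM with CSE and 44.5 ± 10.4 CPM in control (log2 0.05), and Mrpl33 had 15.2 ± 0.886 and 14.1 ± 1.78 CPM (log2 0.11). Among the 20 members of highest level, Mrpl18, Mrpl52 and Mrpl54 had the smallest changes, of log2 0.01, 0.04 and -0.05. A p that missed the threshold does not show that these genes were unaffected. Mrpl18 and Mrpl14 instead differed by library set, which held 66.5% and 67.6% of their variance, as did Mrps5 with 78.8%: Mrps5 had 28.9 CPM in set 1 (25.7 to 31.5), 22.5 CPM in set 2 (20.2 to 25.1) and 30.9 CPM in set 3 (28.0 to 33.1). The sets were found by clustering other genes of these same libraries, so such shares are descriptions.

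Mrpl53, a stalk protein without a bacterial counterpart (chromosome 4 from 113942041 to 113942674, plus strand), had 17.6, 29.2, 18.4, 31.1 and 15.5 CPM with CSE and 18.1, 18.4, 14.6, 14.5 and 13.1 CPM in control. CSE 2 and 4, both of set 2, stood far above every other library, and the change did not pass (log2 0.50, adjusted p = 0.0647). A second entry described as the same protein, LOC103692169, holds 15894 counts, beside 15884 for Mrpl53. That entry had 22.4, 4.65, 23.2, 4.15 and 19.7 CPM with CSE and 22.8, 23.3, 18.0, 17.4 and 15.4 CPM in control. The 2 libraries highest for Mrpl53 were thus the lowest for its second entry. Summed, both entries gave 40.0, 33.8, 41.6, 35.2 and 35.1 CPM with CSE and 41.0, 41.6, 32.6, 31.9 and 28.5 CPM in control, and the change was log2 0.08 ± 0.11 (adjusted p = 0.658). Mrpl36 also has a second entry, LOC100910528, and their sum changed by log2 -0.05 ± 0.15 (adjusted p = 0.832).

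Mitochondrial ribosomal proteins also include genes whose symbols lie outside the rule. Where 10.8% of all genes tested rose with CSE, 1 of 9 such genes did (11.1%, median log2 0.089). This was Ptcd3, a small-subunit protein that binds RNA, at 41.4 ± 7.26 CPM with CSE and 29.1 ± 4.29 CPM in control (SD, n = 5 each; log2 0.51, adjusted p = 0.0199), a call lost without CSE 2 or CSE 4. Dap3, a GTP-binding small-subunit protein, changed by log2 0.02, and Aurkaip1 by -0.27 (adjusted p = 0.112). The others are Chchd1, Gadd45gip1, NEWGENE_1308196 and 3 entries that the table writes in lower case, mrpl9, mrpl11 and mrpl24.

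Promoters are shown because many members rose with CSE while others did not, and because nuclear respiratory factors are known to act on genes of mitochondrial proteins. Windows of 250 bases before the gene start, from RefSeq on the GRCr8 assembly, were found for 59 of the 74 members and 14 of the 20 that rose. The examples were chosen for holding a match: they are the members that rose with an NRF1, GABPA or YY1 motif within 100 bases of the start. They are Mrpl17, the member of highest level, and 2 others. Mrpl17 is shown with the 100 bases before its start. In the others these 100 bases overlap annotated genes, Mrps18b itself in the first and Mrpl27 and Eme1 in the second. For them only 30 bases around the match are shown. Capitals mark the match to a motif, the NRF1 consensus in Mrpl17 (chr1:169575700-169575799, minus strand, 55 bases before the start) and Mrps18b (chr20:2842976-2843005, plus strand, 20 bases before the start), and CCGGAAGT for GABPA in Mrpl27 (chr10:80092273-80092302, plus strand, 61 bases before the start).
Mrpl17: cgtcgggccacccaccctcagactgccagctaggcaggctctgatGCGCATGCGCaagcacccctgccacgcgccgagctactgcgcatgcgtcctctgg
Mrps18b: tccttgtccgGCGCATGCGCagtcgttctt
Mrpl27: gtacgcaagacCCGGAAGTagatctatccc

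The motifs were searched on both strands and counted in the members' windows and in those of the 10680 genes tested that have one. NRF1 matched 6 of 59 members (10.2%), against 8.72% of genes tested, and GABPA 5 (8.47%), against 6.62%. YY1 (AAGATGGC) matched 3 (5.08%), against 2.26%, the aryl hydrocarbon receptor (TNGCGTG) 4 (6.78%), against 6.76%, and the antioxidant response element (TGACNNNGC) 7 (11.9%), against 13.3%. Of the 14 members that rose and have a window, 2 held the NRF1, 1 the GABPA and 1 the antioxidant motif, and none the other two. Mrpl32, Mrpl44, Mrpl45 and Mrpl57 held the NRF1 motif and did not pass in CSE against control. A match is a description of letters, and no match says only that they are not in this window.

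Other genes of mitochondrial protein synthesis were taken from lists of their own. Of 19 translation factors 9 rose with CSE and none fell (median log2 0.30). They include Mtrf1, a release factor (7.97 ± 0.597 CPM with CSE, 4.79 ± 0.953 CPM in control, log2 0.73, adjusted p = 0.00177), Guf1, which is related to the bacterial elongation factor LepA (log2 0.43), and Taco1, which activates translation of a cytochrome oxidase subunit (log2 0.40). Of 20 aminoacyl-tRNA synthetases and related enzymes of the organelle 8 rose (median 0.22), led by Pars2 (0.70), Rars2 (0.33) and Tars2 (0.30), which charge tRNAs with proline, arginine and threonine. With the replicate number as a block or with counts summed per set and group, 5 of them passed, as did 5 without control 1, without control 5 or without CSE 3. Tars2 did not pass in 9 of the 15 fits that left out 1 library.

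The list of factors that assemble the ribosome or modify its RNA, which also holds Metap1d, counted 17 risen of 30 and none fallen (median 0.31). Metap1d, a methionine aminopeptidase of the organelle and by that function no such factor, had 2.60 ± 0.492 CPM with CSE and 1.07 ± 0.390 CPM in control (SD, n = 5 each; log2 1.28, adjusted p = 0.00311). Ddx28, a helicase of large-subunit assembly, and Mrm3, a methyltransferase of the large ribosomal RNA, rose by log2 0.62 and 0.57. Of 16 genes of mitochondrial DNA transcription and maintenance 9 rose (median 0.29), among them Elac2, a tRNA-processing nuclease (0.46), Mgme1, an exonuclease (0.44), and Ssbp1, the single-strand binding protein (0.43). The catalytic subunit of the mitochondrial DNA polymerase, Polg, fell by 0.38.

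Of 26 import genes 10 rose and 1 fell (median 0.20): Tomm70, an import receptor, Timm9, a carrier of the intermembrane space, and Tomm40, the pore of the outer membrane, rose by log2 0.53, 0.48 and 0.32, and Grpel2 fell by 0.31. Of 15 chaperones and proteases 9 rose (median 0.30), with Afg3l2 and Oma1, proteases of the inner membrane, at 0.60 each and Hspa9, the matrix Hsp70, at 0.45. The import count was 6 without control 4 and 5 without CSE 4, and that of chaperones and proteases was 4 without control 3, without control 4 or without CSE 5. Grpel2 did not pass when any of 8 libraries was left out, and Hspa9 in 9 of the 15 such fits (adjusted p of up to 0.104). Regulators of mitochondrial biogenesis counted 0 of 11 past the threshold in edgeR (median 0.056), with 2 at an unadjusted p under 0.05, and 0 with DESeq2 and with limma-voom, while 2 passed as higher without control 3 and 1 without CSE 5. Nrf1 had 23.7 ± 2.54 CPM with CSE and 22.5 ± 1.16 CPM in control, and Gabpa 34.8 ± 2.62 and 32.0 ± 1.59 CPM.

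Respiratory chain subunits, whose assembly needs the products of these ribosomes, showed few calls. Of 71 encoded in the nucleus 2 rose (median log2 0.014): Cox5a of cytochrome oxidase (0.25, adjusted p = 0.0289) and Ndufs1 of complex I (0.20, adjusted p = 0.018), calls lost in 6 and 1 of the 15 fits that left out 1 library. DESeq2 called 3 higher and 3 lower, and limma-voom 3 higher. None of 13 genes encoded in the mitochondrion passed in edgeR, at an unadjusted p under 0.05, with DESeq2 or with limma-voom (median -0.095). Of 88 cytosolic ribosomal proteins 0 passed in edgeR, DESeq2 and limma-voom, with 1 at an unadjusted p under 0.05 (median -0.050). Leaving out 1 library gave 0 to 4 nuclear subunits higher, the most without control 2, and 0 to 5 lower, the most without control 3. Without control 5, 3 genes encoded in the mitochondrion passed as lower and 3 cytosolic ribosomal proteins as higher. Genes encoded in the mitochondrion took 8.33%, 8.14% and 8.29% of the counts in CSE with naringenin, CSE and control. Differences between these lists were not tested.

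**Figure D3:**
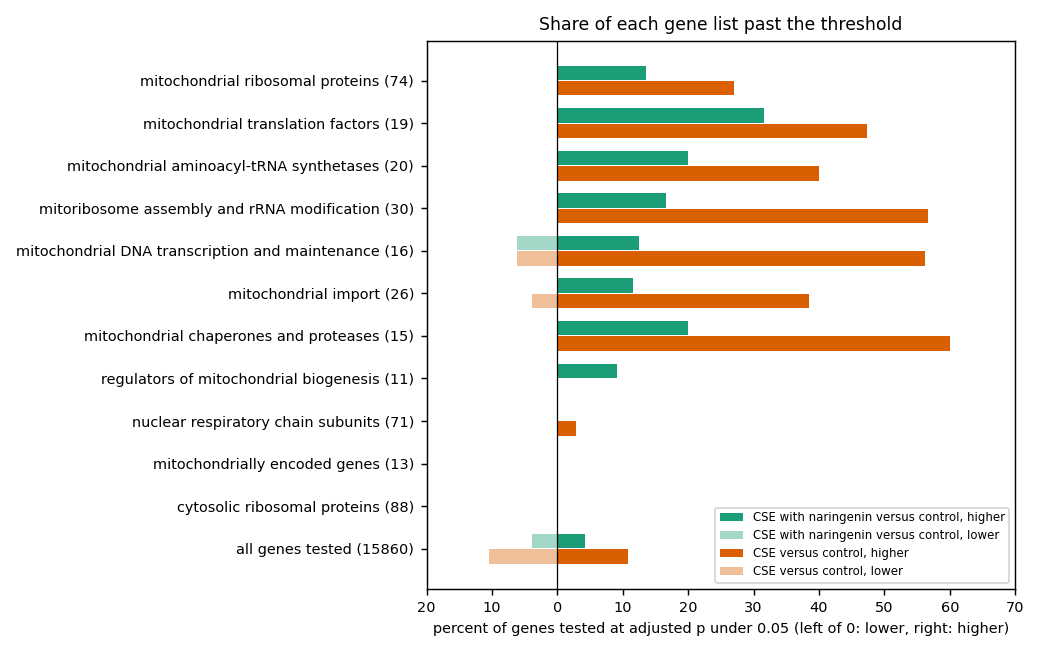
Percent of the tested genes of each list that passed an adjusted p under 0.05, in CSE with naringenin against control (green) and CSE against control (orange), to the right of 0 for higher and to the left for lower. The number of genes tested stands beside each list. The lists from ribosomal proteins down to chaperones and proteases exceed the 10.8% of all genes tested that rose with CSE, while nuclear respiratory chain, mitochondrially encoded and cytosolic ribosomal genes lie at 2.82%, 0% and 0%.

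The second comparison asks whether naringenin altered the response to CSE. No member passed in CSE with naringenin against CSE in edgeR, against 0.334% of genes tested higher and 0.574% lower. At an unadjusted p under 0.05 there were 7 members (9.46%), against 13.2% of genes tested. DESeq2 called 1 member, Mrps33, as higher, against 1.77% of genes tested, and limma-voom 0. By the interaction term, the change differed between sets for 1 member, Mrpl53, against 0.0126% of genes tested. The median change was log2 -0.058, or 0.960-fold, with 22 of 74 members above 0, against 51.1% of genes tested. For 73 of the 74 the 95% interval lay within 1.5-fold in both directions, and the exception, Mrpl53, reached down to log2 -0.85.

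Mrps33, a small-subunit protein without a bacterial counterpart (chromosome 4 from 67607273 to 67610710, minus strand), had the smallest p. It stood at 19.4, 19.3, 17.9, 16.8 and 20 CPM in CSE with naringenin, against 16.2, 15.7, 16.1, 15.3 and 16.9 CPM in CSE. The lowest library with naringenin, replicate 4, lay just under the highest CSE library, replicate 5. The difference was log2 0.22 ± 0.067 (adjusted p = 0.145 in edgeR), and it passed with DESeq2 (adjusted p = 0.0267) and with the library set as a block (adjusted p = 0.03).

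Mrps21, Mrps14 and Mrpl53 followed by p, and none passed. Mrps21 had 18.9 ± 0.975 CPM in CSE with naringenin and 16.5 ± 1.21 CPM in CSE, and Mrps14, a small-subunit protein with a bacterial counterpart, had 17.8 ± 0.989 and 20.9 ± 2.89 CPM (SD, n = 5 each; log2 0.19, adjusted p = 0.272, and -0.23, adjusted p = 0.281). Mrpl53 had 14.3, 14.1, 18.4, 18.7 and 15.9 CPM with naringenin, far from the high CSE 2 and 4 (log2 -0.46 ± 0.185, adjusted p = 0.291). Summed with its second entry, the difference was log2 -0.02 (adjusted p = 0.975). In 1 member, Mrpl27, all libraries with naringenin lay below all CSE libraries, against 2.8% of genes tested. Its levels were 19.9, 16.3, 19.1, 16.9 and 18.8 CPM with naringenin and 20.3, 21.4, 20.2, 20 and 21.6 CPM with CSE alone (log2 -0.19, adjusted p = 0.299).

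Mrpl45, which anchors the ribosome to the inner membrane, passed as lower with the library set as a block (log2 -0.26, adjusted p = 0.00591), as did Mrps18b (-0.21, adjusted p = 0.0212). Mrpl45 had 21.3, 23.3, 24.5, 25.0 and 28.9 CPM in CSE with naringenin and 31.4, 25.7, 31.6, 23.6 and 35.5 CPM in CSE. The groups overlapped over all libraries but not within any set. With the same block, 6.66% of genes tested passed as higher and 6.04% as lower. With counts summed per set and group, 0 of the 74 members passed in this comparison.

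The third comparison sets CSE with naringenin against control. It shares its controls with the first comparison, so both are given side by side and neither supports the other. Of the 74 members 10 were higher (13.5%) and 0 lower, against 4.26% and 3.9% of genes tested, with 28 members at an unadjusted p under 0.05 (37.8%, against 23.5%). The changes that passed were 1.22-fold to 1.32-fold, and the median over the 74 was log2 0.163, or 1.12-fold, with 60 members above 0, against 50.0% of genes tested. In 13 members (17.6%) the groups did not overlap, against 4.65% of genes tested. The count fell to 5 without control 3, 4 without control 4, and 5, 5 and 4 without CSE with naringenin 1, 3 and 5. With counts summed per set and group it was 3, against 3.76% of genes tested. The change differed between sets for 1 member, Mrpl34, against 2.76% of genes tested.

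Mrps22 had the largest change that passed, at 15.4, 15.4, 13.9, 13.8 and 13.8 CPM in CSE with naringenin, against 10.1, 10.6, 13.1, 10.9 and 10.0 CPM in control. All libraries with naringenin were above all controls (log2 0.40, adjusted p = 0.0147). Mrps12 had 18.8, 19.0, 20.6, 21.9 and 22.9 CPM with naringenin, of which the first 2 lie just below control 2 (log2 0.37, adjusted p = 0.0373). Mrpl4 had 31.8, 29.8, 31.0, 30.3 and 36.7 CPM, all above the controls (log2 0.33, adjusted p = 0.0113).

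Mrpl3 and Mrpl17 each had 1 library with naringenin, replicate 4, inside the range of the controls, at 42.1 and 76.8 CPM (log2 0.32, adjusted p = 0.0176, and 0.31, adjusted p = 0.0424). Mrps36, the member that is no ribosomal protein, had 30.5, 29.0, 29.5, 27.5 and 28.9 CPM with naringenin, against 26.2, 26.9, 21.6, 20.5 and 22.2 CPM in control (log2 0.31, adjusted p = 0.0321). Its groups did not overlap. Mrpl28, Mrpl35 and Mrps11 were higher by 0.30 each, and Mrps33 by 0.29 (adjusted p = 0.0162). The calls of Mrpl17 and Mrpl35 were each lost in 12 of the 15 fits that left out 1 library (adjusted p of up to 0.111 and 0.108), those of Mrps11, Mrps12, Mrps36, Mrpl28 and Mrpl3 in 7, 6, 6, 5 and 1, and those of Mrps22, Mrpl4 and Mrps33 in none.

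Some members that rose with CSE alone did not pass against control with naringenin. For Mrpl49, Mrps30, Mrps2 and Mrps18b the changes against control were log2 0.39, 0.31, 0.29 and 0.24 with naringenin and 0.62, 0.48, 0.42 and 0.44 without it. The adjusted p-values with naringenin were 0.0979, 0.079, 0.115 and 0.351 in edgeR. These genes were named for large changes with CSE alone and for not passing with naringenin, so smaller values with naringenin are partly built into the choice. Over all 74 members the medians were log2 0.163 with naringenin and 0.200 without it. Mrpl1, which did not pass either, differed less, at log2 0.45 with naringenin and 0.50 without it. Summed with its second entry, Mrpl1 passed with naringenin (log2 0.33 ± 0.08, adjusted p = 0.0216, edgeR), beside 0.49 without it. In that fit 11 members were higher with naringenin. In CSE with naringenin against CSE none of the 20 members that rose with CSE passed in edgeR without a block, and Mrps18b passed with the library set as a block. Mrps33 and Mrps36 passed with naringenin and not without it (log2 0.07 and 0.20 in CSE against control).

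**Figure D4:**
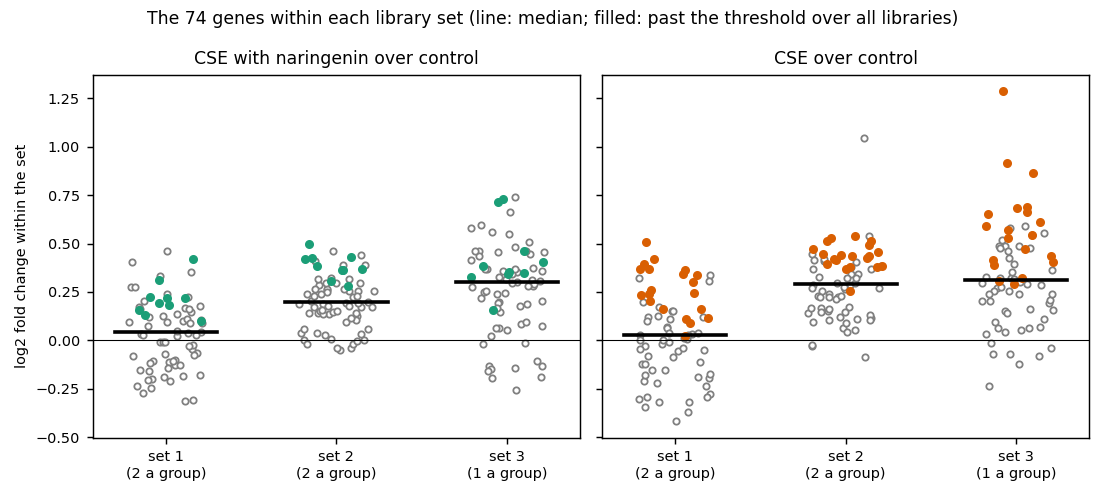
Log2 fold change of each of the 74 genes within library sets 1, 2 and 3, for CSE with naringenin over control on the left and CSE over control on the right. Black lines are medians, and filled points passed over all libraries. The medians are 0.046, 0.196 and 0.302 on the left and 0.029, 0.293 and 0.313 on the right, and filled points lie above 0 in every set.

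In CSE with naringenin against CSE, 0 genes of every list of mitochondrial gene expression, import and chaperones passed in edgeR. Of all genes tested, 0.334% were higher and 0.574% lower. At an unadjusted p under 0.05 there were 1 translation factor, 2 assembly factors and 3 genes each of DNA transcription and maintenance, import, and chaperones and proteases, against 13.2% of genes tested. DESeq2 called 1 assembly factor, 1 gene of DNA maintenance and 2 import genes lower, against 2.07% of genes tested. Against control, 6 of 19 translation factors, 4 of 20 synthetases, 5 of 30 assembly factors, 2 of 16 genes of DNA transcription and maintenance, 3 of 26 import genes and 3 of 15 chaperones and proteases were higher with naringenin, where 4.26% of genes tested were. These counts fell to 3 translation factors (without control 4, or CSE with naringenin 3 or 4), 1 synthetase (without CSE with naringenin 1 or 3), 3 assembly factors (without control 2 or 4, or CSE with naringenin 1, 2, 3 or 5) and 0 genes of DNA transcription and maintenance (without CSE with naringenin 3). Import genes fell to 2, and chaperones and proteases to 1 without control 3 or 4 or CSE with naringenin 1, 3, 4 or 5. Mtrf1 (6.81 ± 0.757 CPM, log2 0.51), Pars2 (0.59) and Ddx28 (10.9 ± 1.16 CPM, log2 0.46) are among them. Polg was lower, by 0.33, and Tfam and Polrmt, which pack and transcribe the mitochondrial genome, were higher by 0.26 and 0.36. Hcfc1, a co-regulator, was the single regulator called (0.21). Of these, Mtrf1 and Ddx28 did not pass in 7 of the 15 fits that left out 1 library, Polg in 6, Tfam and Hcfc1 in 5 and Polrmt in 1.

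Across the 15 libraries, the tested genes most like Mrpl12 by Pearson's r of log2 CPM included Pno1 (r = 0.951), a factor of cytosolic ribosome assembly, Ddx1 (0.949), an RNA helicase, Sap30 (0.945), a subunit of a histone deacetylase complex, and Bckdk (0.945), a mitochondrial kinase of branched-chain amino acid breakdown. The member most like it, Mrpl43, stood at rank 9 with r = 0.925, and Mrpl2 at rank 19. These values describe 15 libraries that share groups and library sets.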

How the data were processed

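RNA was purified on oligo(dT) beads, read in pairs on a NovaSeq with molecular identifiers in the adapters, and the submitters' processing notes name edgeR, DESeq2, StringTie 1.3.4d, UMI-tools, HISAT2 2.0.4 and cutadapt 1.9, without saying what each did. The values used are raw counts per gene and library, deposited by the authors as whole numbers. The FPKM values beside them were computed by the authors. Per-library levels are CPM, computed here from the deposited counts with TMM scaling. The sources used here do not give the genome build, whether molecular identifiers were merged or whether counting used the strand.

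Differences come from the quasi-likelihood F test of edgeR 4.0.16 (R 4.3.3), in 1 model over the 15 libraries that holds group and nothing else (filterByExpr, Benjamini-Hochberg adjustment over 15860 genes). A gene was called at an adjusted p under 0.05, and SE refers to the fitted log2 change. Intervals of fold changes are at 95%. A library set was found by clustering log2 CPM of genes that are not members, after centring on the groups. No replicate pair was taken as a repeated deposit: the median chi-square per gene was 2.79 to 19.5 over 30 pairs, against 0.455 from sampling alone. A count of 3 was taken as the floor of detection, and every member lay far above it.

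The members and all gene lists were chosen with earlier results of these data known. Genes named in full are, by rule, the 8 largest changes that passed in CSE against control, the 6 largest in CSE with naringenin against control, the 4 smallest p in CSE with naringenin against CSE, the 3 highest and 3 lowest by FPKM, and those with the smallest changes or largest shares between sets. Other genes were named after their values were seen. Of the 5 genes most like Mrpl12, 1 is not reported here. Alternatives were DESeq2 1.42.0, limma-voom and limma on log2(FPKM + 0.1) or log2(FPKM + 1) (limma 3.58.1), other scalings, no filter, the library set or replicate number as a block, fits within sets, and leaving out each library. Counts summed per set and group, and members summed with their second entries, were added after the data were seen.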

Additional observations from a re-analysis of the deposited data

Results flagged for a closer look

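In 4 of 78 groups of 5 libraries looked at among named members, 1 library stood far from the other 4, and chance alone flags about 1 in 20 groups. Mrps22 had 13.1 CPM in control 3, against 10.0 to 10.9 CPM in the other controls. Mrps30 had 11.8 CPM in CSE with naringenin 2, against 13.7 to 13.9 CPM in the others of its group. Mrpl3 had 59.1 CPM in CSE 5, against 47.5 to 48.5 CPM. Mrpl33 had 12.5 CPM in CSE with naringenin 4, against 15.0 to 15.2 CPM.

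The effect of CSE against control differed between the library sets for 6 members (8.11%), by the interaction of group and set in edgeR, against 4.72% of genes tested. Mrpl53 had log2 changes of -0.02, 1.05 and 0.24 in sets 1, 2 and 3 (adjusted p = 0.00249), where the share of reads between it and its second entry also differed. Mrpl14 had -0.32, 0.24 and -0.12 (adjusted p = 0.0268) and Mrpl55 -0.11, 0.54 and 0.59 (adjusted p = 0.0311). For Mrpl10 the changes were -0.42, -0.09 and 0.06 (adjusted p = 0.0375), and for Mrpl34 they were -0.34, 0.11 and 0.31 (adjusted p = 0.0419). Mrps12 had 0.16, 0.52 and 0.86 (adjusted p = 0.0472), above 0 in each set. In CSE with naringenin against CSE, Mrpl53 differed between sets (0.04, -1.09 and 0.04, adjusted p = 0.0112), where 0.0126% of genes tested did. In CSE with naringenin against control, Mrpl34 differed (-0.31, 0.29 and 0.25, adjusted p = 0.0399), against 2.76% of genes tested. Set 3 holds 1 library of each group.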

How the results depend on the processing

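In CSE against control, 20 members passed as higher and 0 as lower. The count higher was 39 with library totals alone and with the library set as a block, 36 with limma on log2(FPKM + 0.1) and on log2(FPKM + 1), 10 within set 1 and 37 within set 2, and 13 to 23 when 1 library was left out. With the set block, 19.2% of all genes tested were higher, beside 10.8% without it. The count lower was 2 with the set block, 1 with DESeq2, 7 within set 1, and 0 to 1 when 1 library was left out, the 1 being Mrpl10 without control 3. The median of 0.20 was 0.029, 0.293 and 0.313 within sets 1, 2 and 3. All 20 calls were kept with library totals alone, the set block, DESeq2 and limma on FPKM, 19 with limma-voom (Mrpl1 lost), and 18 of them when counts were summed per set and group (Mrps25 and Mrps7 lost). Library totals alone moved the median of all genes to 0.065 and gave 2582 higher and 1270 lower over all genes, and limma on log2(FPKM + 0.1) gave 2380 and 1306, beside 1711 and 1652. In CSE with naringenin against CSE, 0 members passed. The set block gave 1 higher and 2 lower, DESeq2 1 higher, and the fits within sets 1 and 2 gave 1 lower each. In CSE with naringenin against control, 10 members passed as higher. The count was 24 with library totals alone, 28 with the set block, 23 and 22 with limma on FPKM at the smaller and larger pseudocount, 3 with summed counts, 4 higher and 2 lower within set 1, 18 higher within set 3, and 4 to 10 when 1 library was left out. Of all genes tested, 12.6% were higher with the set block and 7.53% with limma on log2(FPKM + 0.1), beside 4.26% in the main fit. Library totals alone gave 1442 genes higher. The members' median of 0.163 was 0.0456 within set 1 and 0.302 within set 3. In 2 cases a change that did not pass over all libraries passed with the opposite sign within a set, Mrpl14 in CSE against control within set 2 (log2 0.24, adjusted p = 0.0294) and Mrpl34 in CSE with naringenin against control within set 1 (-0.31, adjusted p = 0.0292). The cause was not tested in any of these. Same-numbered libraries did not deviate together throughout (r from -0.394 to 0.386 over 15 pairs, 7 above 0.1), so the numbers are not taken as pairs. All 7 pairs above 0.1 joined libraries of the same set, and the sets were clustered from these same correlations. The values for replicate 5, which makes up set 3 (r = 0.300, 0.272 and 0.346), are therefore a description only. With the replicate block, 23 members were higher and 0 lower in CSE against control, and 0 either way in CSE with naringenin against CSE. In CSE with naringenin against control, 11 members were higher and 0 lower. Over all genes, this block gave 1764 higher and 1728 lower in CSE against control, beside 1711 and 1652 in the main fit. For CSE with naringenin against control it gave 721 and 729, beside 675 and 619. Depth did not limit detection of any member.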

Other observations

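Over the 15 libraries the members varied together more than genes do on average. The mean pairwise Pearson's r of log2 CPM was 0.339 among the 74 members, and 0.240 after each group was centred on its own mean, against 0.000473 among all genes tested. It was 0.344 within the large subunit and 0.304 within the small subunit. Among cytosolic ribosomal proteins it was 0.485, among nuclear respiratory chain subunits 0.455 and among mitochondrially encoded genes 0.395. After the same centring these lists had 0.523, 0.550 and 0.390. Each was above the value among the members, with and without centring. These values are descriptions, since all pairs share the same libraries, groups and sets.

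A median of 38.9% of a member's variance lay between the groups and 23.9% between the library sets, beside 24.8% and 32.4% over all genes tested. In 46 of the 74 members the share between groups was above that between sets.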
